A study of Mus musculus with 48 samples.

Results

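The 10 genes described here mark epithelial or mesenchymal identity, and they were followed through RNA sequencing of mouse embryonic stem (ES) cells and of the RNA recovered with the silencing protein Tnrc6a. The epithelial members are Esrp1, Esrp2, Cdh1, Epcam, Krt8 and Krt18, and the mesenchymal members are Cdh2, Zeb1, Zeb2 and Vim. They were chosen by symbol from the 20171 genes of the count table, after Esrp1 was seen to be the most strongly lowered gene, among those of at least moderate level, in lysates of cells labelled Upf1 knockout. The change in those lysates, called inputs, is therefore what chose the genes and is given as a description with no test. All 10 symbols were found, each with 1 row, and all 10 passed the filter on low counts in each of the 6 comparisons.

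The study used RNA immunoprecipitation: cleared lysates were sequenced as inputs, and the RNA that HA magnetic beads pulled out of them was sequenced as immunoprecipitates (IPs). The cells were mouse ES cells of the 129S6/SvEvTac background. All of them, controls included, carried a GFP reporter with binding sites for Trim71 (GFP_5xT71BS) and a stably transfected FLAG-Cas9 transgene. Untagged cells carried nothing further, HA-Tnrc6a cells carried an HA-AVI tag on Tnrc6a, and the 2 knockout lines were HA-Tnrc6a cells that were also Ago2-/- or Upf1-/-. All were grown on gelatin with serum and LIF, without a described treatment. The 48 libraries form 16 groups of 3, from 4 genotypes, 2 fractions and experiments 3 and 4. The dishes were triplicates, and the number of clones behind a genotype is not given. A p-value thus measures the spread between dishes of what may be a single clone per genotype.

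Epithelial cells hold together through E-cadherin (Cdh1) and the surface protein Epcam, carry the paired filament proteins keratin 8 and keratin 18, and splice many transcripts in an epithelial pattern under the RNA-binding proteins Esrp1 and Esrp2. In the epithelial to mesenchymal transition the zinc finger repressors Zeb1 and Zeb2 lower such genes, while N-cadherin (Cdh2) and vimentin (Vim) are typical of mesenchymal cells. Mouse ES cells grow as compact E-cadherin-positive colonies and nevertheless express vimentin. Tnrc6a, a GW182 protein, is bound by Argonaute proteins such as Ago2 and brings deadenylation enzymes to microRNA targets, and Upf1 is a helicase of nonsense-mediated mRNA decay.

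Zeb1 and Zeb2 mRNAs are textbook targets of the miR-200 microRNA family, which is why the mature sequences are shown. They are from RefSeq (GRCm38.p6), written 5′ to 3′, with the seed, bases 2 to 8, in capitals.
miR-141-3p: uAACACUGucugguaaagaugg
miR-200a-3p: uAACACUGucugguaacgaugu
miR-200b-3p: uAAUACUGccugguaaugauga
miR-200c-3p: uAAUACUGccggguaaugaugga
miR-429-3p: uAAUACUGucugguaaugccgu
The first pair share the seed AACACUG and the other 3 share AAUACUG. The genes lie in clusters on the minus strand of chromosomes 4 (miR-200a, miR-200b and miR-429) and 6 (miR-141 and miR-200c). MicroRNAs themselves were not measured in these libraries.

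The ZEB proteins bind E-boxes of the form CACCTG or its reverse complement CAGGTG, and the Epcam promoter is shown because it held 2 of them. It spans chr17:87635729-87636028 on the plus strand of GRCm38.p6 (RefSeq), from 250 bases before the start of the gene to 50 bases after it, with the E-boxes in capitals. Their first bases lie at -187 and -19, counted from the start of the gene.
Epcam promoter: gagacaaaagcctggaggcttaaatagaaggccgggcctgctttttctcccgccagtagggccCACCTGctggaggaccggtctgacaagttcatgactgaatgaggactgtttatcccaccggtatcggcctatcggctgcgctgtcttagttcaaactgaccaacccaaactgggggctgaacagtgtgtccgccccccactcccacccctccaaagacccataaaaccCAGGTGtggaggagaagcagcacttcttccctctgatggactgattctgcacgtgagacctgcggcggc
Of the 32851 mouse promoters of this length in the RefSeq table, 20.2% held at least 1 such E-box on either strand and 2.88% held 2 or more. The Krt8 promoter (chr15:102004293-102004592, minus strand) and the Krt18 promoter (chr15:102027966-102028265, plus strand) held 1 each, at -111 and -214. The Vim promoter (chr2:13574061-13574360) and the 4 listed for Zeb2 held none, and promoters of the other 5 members were not used here. A match describes letters in this window and is not evidence of a binding site.

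Library totals ran from 15383953 to 19595405 counts for inputs numbered 1 to 3 and from 26458831 to 37179105 for inputs numbered 4 to 6. For IPs the ranges were 11471544 to 18344233 and 25724085 to 73845953, with 12 libraries in each range. The numbers 1 to 3 and 4 to 6 are taken as the 2 experiments, which is inferred from the numbering; the averages over both do not depend on it. Levels are CPM, counts scaled to a common library size, after TMM scaling over all 48 libraries. Ago2 mRNA lay at 92.8 to 136 CPM in Ago2 knockout inputs against 205 to 323 in HA-Tnrc6a inputs. Upf1 mRNA lay higher, not lower, in the inputs labelled Upf1 knockout (122 to 142 CPM, against 74.4 to 99.6), so the Upf1 knockout is named below as the label has it and was not seen in the mRNA. Tnrc6a RNA reached 8841 to 34244 CPM in HA-Tnrc6a IPs and 56.6 to 105 in untagged IPs. The summed level of 9 pluripotency markers was 6029 to 7876 CPM over all 24 inputs, and each of the 9 was detected in every input. HA-Tnrc6a input 3 stood apart from its replicates, with a chi-square per degree of freedom of 32.0 and 27.0 against inputs 1 and 2, which had 2.59 between them. Upf1 knockout IP 4 also stood apart (24.9 and 34.0 from IPs 5 and 6, which had 4.52 between them), as did HA-Tnrc6a IP 4 (21.3 and 17.8 from IPs 5 and 6, which had 7.46). Untagged IPs 1 to 3 all differed from each other, by 15.7 to 27.5. Without HA-Tnrc6a input 3 each member's call on the average over both sets held, except for Vim in the recovery from Upf1 knockout cells. That value is given below. Differences between the sets were not refitted without this input.

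To compare the genes with each other, levels in HA-Tnrc6a inputs were divided by gene length. In libraries 1 to 3, Vim was at 38.1 ± 0.746 CPM per kilobase, Cdh1 at 37.5 ± 3.74 and Epcam at 32.8 ± 1.87 (mean ± SD, n = 3). Vim and Cdh1 overlapped in that order, as did Cdh1 and Epcam. Krt18 followed at 10.9 ± 0.977, Krt8 at 5.65 ± 0.214, Esrp1 at 4.06 ± 0.411, Esrp2 at 1.52 ± 0.0978 and Zeb1 at 1.12 ± 0.125, none of them overlapping its neighbours. Cdh2 stood at 0.294 ± 0.0801 and Zeb2, the least abundant member, at 0.0327 ± 0.00800. Libraries 4 to 6 had Cdh1 first at 47.0 ± 2.41, then Vim at 37.3 ± 1.04 and Epcam at 26.5 ± 0.751. Krt8 (5.55 ± 0.456) and Krt18 (5.35 ± 0.526) overlapped there. Esrp1 came after Zeb1 (2.2 ± 0.157) and Esrp2 (1.57 ± 0.140), at 0.836 ± 0.123 CPM per kilobase. These ES cells thus held the epithelial adhesion genes Cdh1 and Epcam together with vimentin, with N-cadherin and Zeb2 near the bottom.

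Esrp1 (ENSMUSG00000040728, chr4:11331933-11386783 in GRCm38) encodes the main epithelial splicing regulator. Its HA-Tnrc6a inputs had 26.4, 27.7 and 22.7 CPM in libraries 1 to 3 and 4.80, 6.17 and 4.85 CPM in libraries 4 to 6. Untagged inputs had 19.7, 25.6, 24.4, 5.70, 5.27 and 5.40 CPM, which overlapped the tagged cells in both sets. Ago2 knockout inputs had 15.6, 17.7 and 16.6 and then 1.90, 1.86 and 1.55 CPM. Inputs labelled Upf1 knockout had 5.25, 4.70 and 4.64 and then 1.11, 0.499 and 0.569 CPM, the last 3 resting on 38, 15 and 24 counts. Within each set the order was the same, with untagged and HA-Tnrc6a inputs on top, Ago2 knockout inputs below them and Upf1 knockout inputs lowest, and neither knockout overlapped HA-Tnrc6a. Between the sets the mean differed in every genotype: libraries 1 to 3 stood 4.26 times above libraries 4 to 6 in untagged inputs, 4.85 times in HA-Tnrc6a, 9.43 times in Ago2 knockout and 6.70 times in Upf1 knockout inputs. This distance between sets was not tested. In such bulk libraries, fewer cells expressing a gene and less RNA per cell cannot be told apart.

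**Figure D1:**
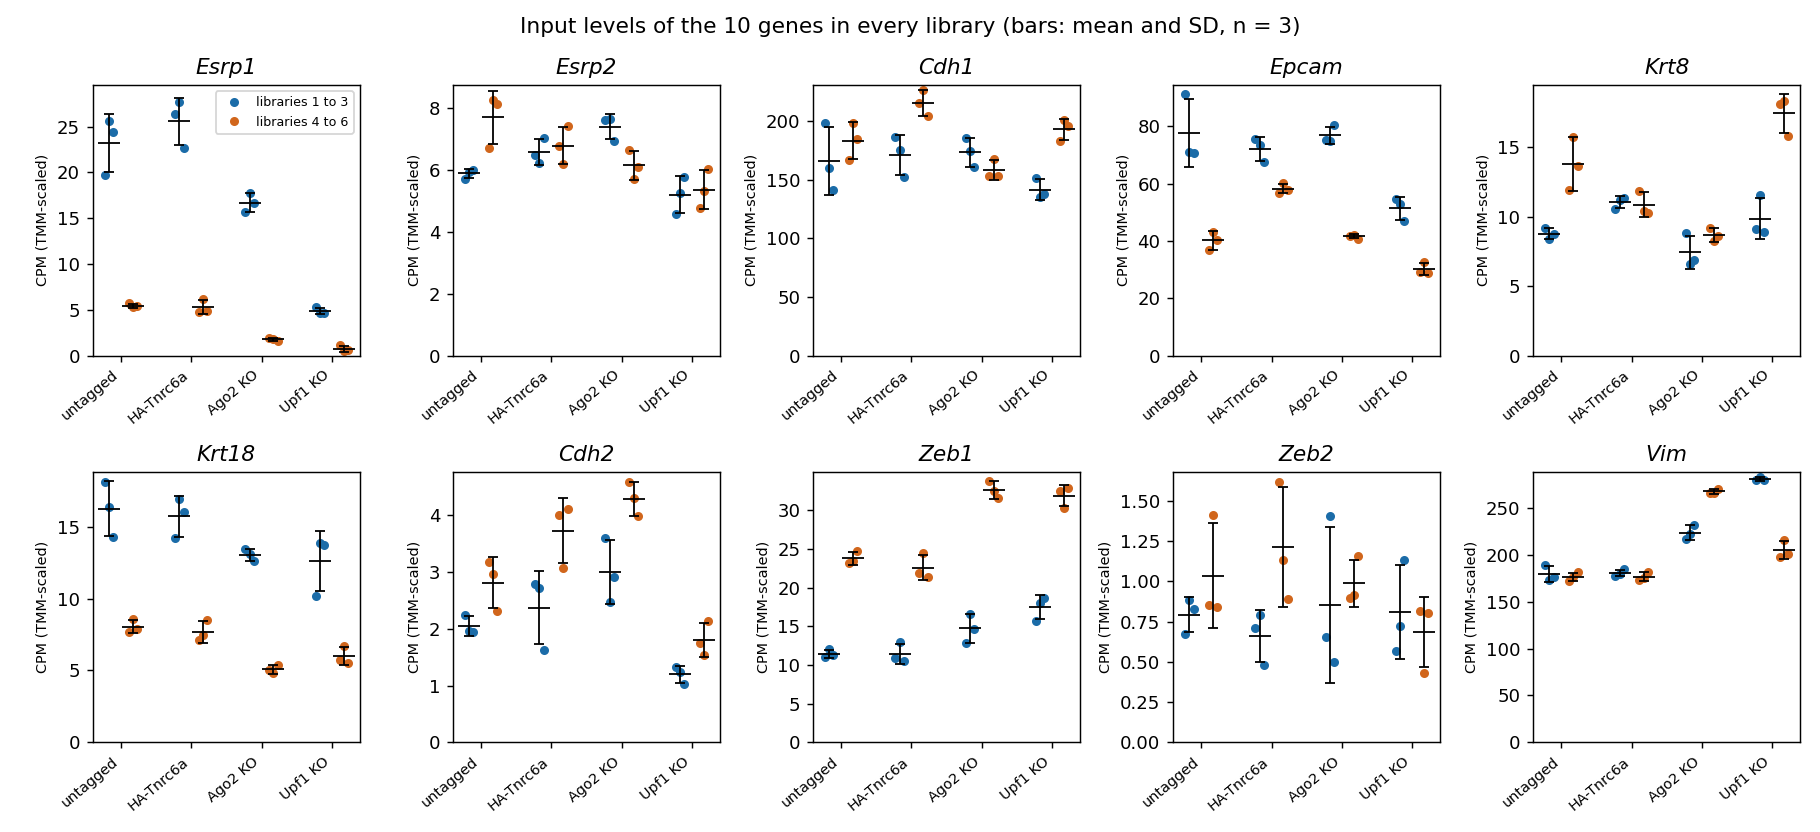
Level of each gene in every input library, in TMM-scaled CPM on a linear axis from 0, by genotype (KO, knockout), with libraries 1 to 3 in blue and 4 to 6 in orange and the mean and SD of each group of 3 in black. Esrp1 runs from 27.7 CPM in HA-Tnrc6a inputs to 0.499 CPM in Upf1 knockout inputs, with the orange points below the blue ones in each genotype.

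The inputs labelled Upf1 knockout, the comparison the genes were selected on, set Esrp1 apart from its partners. Averaged over the sets, Esrp1 had 16.3% of its HA-Tnrc6a level, a log2 difference of -2.62 ± 0.11 (SE), with -2.40 in libraries 1 to 3 and -2.84 in libraries 4 to 6. Leaving out Upf1 knockout input 4, the replicate with 1.11 CPM, gave -2.83. Esrp1 ranked 1 of 11118 genes with an average log2 CPM of at least 3. The genes just behind it were the calcium-binding Calb2 (-2.33), the Polycomb gene Scml2 (-2.12), the immediate early gene Egr1 (-2.01) and the transglutaminase Tgm3 (-1.98). A further 13 called genes had lower values still, all at an average log2 CPM of 1.42 or less.

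The other epithelial members lay far closer to their HA-Tnrc6a level. Esrp2, the paralogue of Esrp1, was at 79.1% (log2 -0.34 ± 0.09), Cdh1 at 86.3% (-0.21 ± 0.05) and Krt18 at 78.7% (-0.35 ± 0.08), each averaged over the sets. Epcam, at 60.9%, had 54.6, 52.8 and 46.9 CPM and then 29.3, 32.5 and 28.7 CPM. HA-Tnrc6a inputs had 75.5, 73.3, 67.5, 56.8, 60.0 and 57.8 CPM of Epcam, above the Upf1 knockout inputs of the same set without overlap. Krt8 went separate ways in the sets, with 9.09, 11.6 and 8.91 CPM against 10.6, 11.2 and 11.4, and then 18.2, 18.4 and 15.8 CPM against 11.9, 10.4 and 10.3. Its log2 differences were -0.18 and 0.69, whereas Krt18, whose product pairs with keratin 8 in the same filament, had -0.33 and -0.36.

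Mesenchymal members of the same inputs pointed in both directions. Zeb1 was at 147% of HA-Tnrc6a (log2 0.56 ± 0.06, with 0.60 and 0.51 in the sets) and Vim at 135% (0.43 ± 0.02, with 0.63 and 0.23). Vim had 281, 283 and 280 CPM in libraries 1 to 3 and 198, 217 and 201 in libraries 4 to 6, all above the HA-Tnrc6a range of 173 to 185 CPM. Cdh2 was at 50.1% (-0.999 ± 0.158, on 19 to 90 counts per input) and Zeb2 at 84.0% (-0.25 ± 0.26, on 12 to 34 counts). Since this contrast chose the 10 genes, no calls are counted among them. Of all 19444 genes tested, 29.5% were called higher and 29.0% lower.

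The Ago2 knockout inputs did not take part in choosing the genes, and there 5 of the 6 epithelial members fell and 2 of the 4 mesenchymal members rose. Among all 19641 genes tested, 15.7% were higher and 15.2% lower. These inputs share the HA-Tnrc6a controls with the other comparisons, so the comparisons are not independent of each other. Those controls also entered the comparison that chose Esrp1. Its p-values here, in untagged inputs and in the IP comparisons are therefore not independent of that choice. Esrp1 fell to 46.7% of HA-Tnrc6a, a log2 difference of -1.10 ± 0.09 (SE, n = 3 per group in each set; edgeR quasi-likelihood adjusted p = 4.26e-14). Esrp2, with 5.71 to 7.66 CPM in the 6 Ago2 knockout inputs and 6.20 to 7.41 in HA-Tnrc6a inputs, differed by 0.01 (95% interval -0.17 to 0.19; edgeR adjusted p = 0.948).

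The keratins fell together. Krt8 had 8.80, 6.59 and 6.89 and then 9.22, 8.26 and 8.63 CPM in Ago2 knockout inputs, each below the lowest HA-Tnrc6a input of its set. Its log2 difference was -0.44 ± 0.08 (edgeR adjusted p = 1.55e-05). Krt18 had 13.4, 13.1 and 12.6 and then 5.02, 4.80 and 5.38 CPM, against 14.2, 17.0 and 16.0 and then 7.09, 7.45 and 8.54 CPM, with no overlap within a set and a difference of -0.44 ± 0.08 (edgeR adjusted p = 1.11e-05). The sets gave -0.27 and -0.60 for Krt18, and libraries 1 to 3 fitted alone did not pass (edgeR adjusted p = 0.0674). Both keratins have pseudogene copies, so their counts are uncertain where reads could be assigned to either.

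The adhesion genes fell on average, with the lower values in libraries 4 to 6. Cdh1 had 185, 174 and 161 CPM in Ago2 knockout inputs 1 to 3, inside the range of the HA-Tnrc6a values of 186, 175 and 153, and 153, 168 and 153 CPM in inputs 4 to 6, below all of 215, 226 and 204. The averaged difference was -0.21 ± 0.05 (edgeR adjusted p = 0.0108), made of 0.02 and -0.45. Epcam had 75.2, 74.7 and 80.4 CPM and then 41.8, 42.1 and 40.7 CPM, with an average of -0.20 ± 0.03 (edgeR adjusted p = 6.18e-06) made of 0.09 and -0.49. The difference between the sets itself passed the test for Epcam (-0.58 ± 0.07, edgeR adjusted p = 3.25e-08), for Cdh1 (-0.46 ± 0.11, 0.0301) and for Esrp1 (-0.96 ± 0.18, 0.000235). Untagged inputs, set against the same HA-Tnrc6a inputs, gave Epcam values near those of the Ago2 knockout, 0.10 and -0.53. For Cdh1 the untagged inputs gave -0.05 and -0.23.

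Zeb1 and Vim rose in the Ago2 knockout inputs. Zeb1 had 12.9, 16.6 and 14.7 and then 33.8, 32.5 and 31.6 CPM, against 10.9, 12.9 and 10.5 and then 21.9, 24.4 and 21.4 CPM in HA-Tnrc6a inputs. The genotypes met at 12.9 CPM in libraries 1 to 3 and lay apart in libraries 4 to 6, and the difference was 0.44 ± 0.06 (edgeR adjusted p = 1.47e-07). Vim had 217, 223 and 232 and then 267, 266 and 271 CPM, all above HA-Tnrc6a inputs, with a difference of 0.45 ± 0.03 (edgeR adjusted p = 3.95e-19). That of Vim was 0.29 ± 0.05 larger in libraries 4 to 6 (edgeR adjusted p = 0.000112). Cdh2 (0.28, 95% interval 0.01 to 0.55, edgeR adjusted p = 0.113) and Zeb2 (0.04, -0.47 to 0.54, edgeR adjusted p = 0.936) did not pass. Zeb1 overlaps Gm10125, Zeb2 overlaps Zeb2os and Mir5129, and Esrp2 overlaps Nfatc3 and 1810019D21Rik in the annotation. Whether reads were counted by strand is not given in the sources used here, and those counts are uncertain.

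Markers of other cell types moved in the same inputs, where 15.7% of all genes were higher and 15.2% lower. All 7 endoderm markers in the table fell in Ago2 knockout inputs, with a median log2 difference of -2.73 against -0.01 over all genes. Their summed level was 42.1 to 45.7 and 47.9 to 56.7 CPM in libraries 1 to 3 and 4 to 6, against 121 to 127 and 96.0 to 112 in HA-Tnrc6a inputs. Of these markers, Foxa2 was at 0 in 2 of 24 inputs and Gata4, Gata6, Sox7, Sox17, Dab2 and Lama1 were detected in each. Inputs labelled Upf1 knockout had endoderm sums of 38.7 to 45.2 and 125 to 135 CPM, below HA-Tnrc6a in the first set and above it in the second. Of the 7 genes, 1 was higher and 4 were lower there (median -0.67). Untagged inputs had endoderm sums of 48.1 to 53.7 and 101 to 104 CPM. Lama1, at 25.7 to 90.6 CPM over the inputs, made up most of the endoderm sums. The 5 fibroblast markers fell in Ago2 knockout inputs (sums of 35.7 to 39.0 and 28.5 to 32.1 CPM, against 47.4 to 52.3 and 41.2 to 43.6). In inputs labelled Upf1 knockout the fibroblast sums were 48 to 52.2 and 64.6 to 68.2 CPM, above HA-Tnrc6a in libraries 4 to 6. Of the 5 genes, 2 were higher there, Pdgfrb (1.03) among them, and 1 was lower (median -0.23). Of all genes, 29.5% were higher and 29.0% lower in that comparison. Of the neural ectoderm markers all 4 in the table rose in Ago2 knockout inputs (median 0.45), with sums of 114 to 119 and 109 to 113 CPM against 82.5 to 91.1 and 83.1 to 86.1 in HA-Tnrc6a inputs. They summed to 67.0 to 68.3 and 51.5 to 53.9 CPM in inputs labelled Upf1 knockout, below HA-Tnrc6a. Trophectoderm sums were 113 to 116 and 70.1 to 72.8 CPM in Ago2 knockout, 86.8 to 90.8 and 58.4 to 61.5 in Upf1 knockout and 75.6 to 79.5 and 51.4 to 58.2 in HA-Tnrc6a inputs. Most of each sum was Tfap2c, at 40.8 to 110 CPM over the inputs. Of the 4 trophectoderm genes tested, 1 rose (Tfap2c) and 1 fell in Ago2 knockout inputs (median 0.06). In Upf1 knockout inputs 2 were higher and 1 lower (median 0.47). Mesoderm sums were 7.21 to 9.09 and 9.31 to 9.98 CPM in Ago2 knockout, 10.4 to 10.5 and 15.3 to 18.5 in Upf1 knockout and 8.53 to 9.66 and 7.70 to 8.87 in HA-Tnrc6a inputs. Of the 6 mesoderm genes tested in Upf1 knockout inputs, 1 was higher (Eomes) and 1 lower (median -0.04). Of 9 pluripotency markers 7 rose in Ago2 knockout inputs, with sums of 7374 to 7876 and 7406 to 7589 CPM against 6853 to 6879 and 6786 to 6894. In inputs labelled Upf1 knockout these sums were 6029 to 6062 and 6095 to 6165 CPM. The part of these cell types in the members' changes was not tested.

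Untagged and HA-Tnrc6a cells differ by the tag in their labels. Among the 10 genes, Epcam passed in their inputs, falling by 0.21 on the log2 scale (SE 0.06, edgeR adjusted p = 0.0117), where 7.67% of all 19407 genes were higher and 7.74% lower. Epcam had 91.2, 71.0 and 70.7 CPM in untagged inputs 1 to 3 and 36.8, 43.3 and 40.4 in inputs 4 to 6, so that only the latter lay below HA-Tnrc6a. Its difference between the sets was -0.64 ± 0.11 (edgeR adjusted p = 0.00286). Krt8 averaged 0.00 (edgeR adjusted p = 0.984) from -0.34 and 0.35, a difference of 0.69 ± 0.15 between the sets (edgeR adjusted p = 0.0112). Esrp1 differed by -0.04, with a 95% interval of -0.21 to 0.12 (edgeR adjusted p = 0.793), Zeb1 by 0.04 (-0.09 to 0.17, edgeR adjusted p = 0.766) and Vim by -0.01 (-0.07 to 0.06, edgeR adjusted p = 0.933). Cdh2 (-0.31, edgeR adjusted p = 0.17) and Cdh1 (-0.14, edgeR adjusted p = 0.351) had larger values that did not pass. Libraries 4 to 6 alone gave -0.23 for Cdh1, which passed (edgeR adjusted p = 0.0228).

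**Figure D2:**
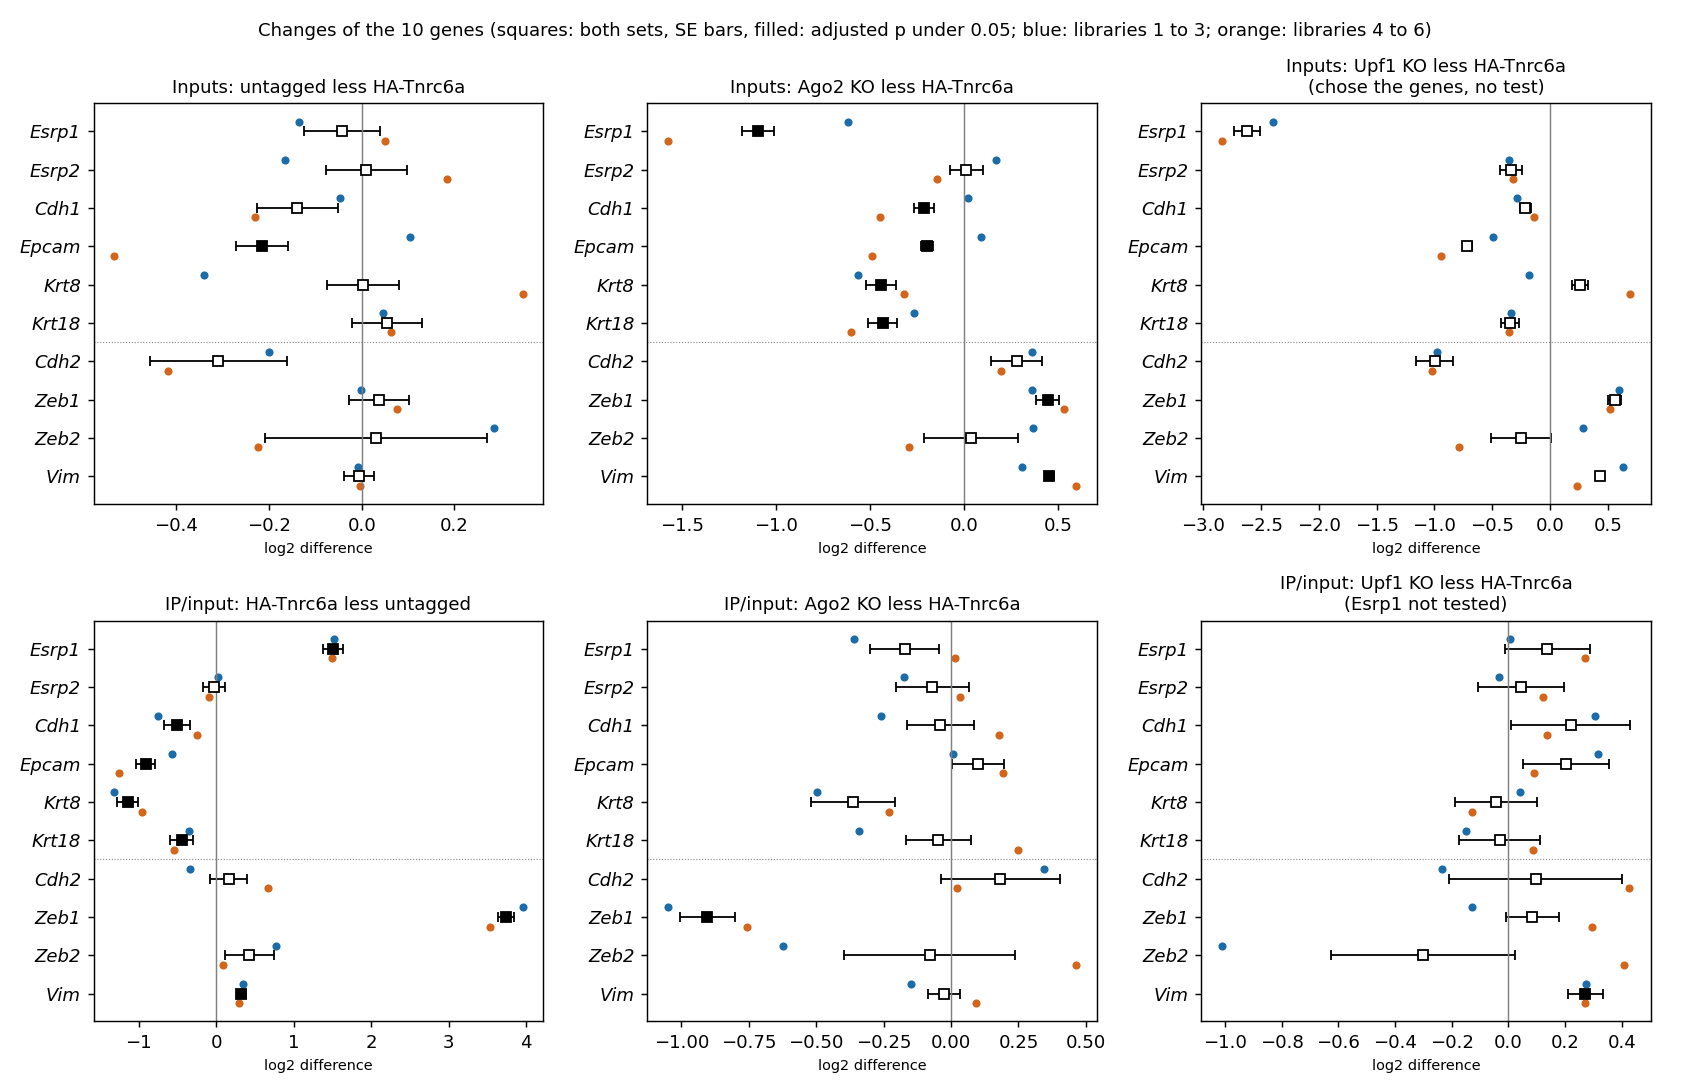
Log2 difference of each gene in the 6 comparisons (KO, knockout), as squares with SE bars for the average over both sets, filled where the adjusted p is under 0.05, and as dots for libraries 1 to 3 (blue) and 4 to 6 (orange); axes differ between panels. Esrp1 is at -1.10 in Ago2 knockout and -2.62 in Upf1 knockout inputs, and Zeb1 at 3.75 in the recovery with HA-Tnrc6a over untagged cells.

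Wider gene lists place the members among their kind. Of 27 junction and surface genes, 6 rose and 11 fell in Ago2 knockout inputs (median log2 difference -0.10). Of all genes, 15.7% rose and 15.2% fell there (median -0.01). The tight junction genes Cldn6 (-1.13 ± 0.07, edgeR adjusted p = 1.41e-16) and Tjp3 (-0.32 ± 0.07, edgeR adjusted p = 0.000604) fell, and the desmosome genes Dsp (0.34 ± 0.06, edgeR adjusted p = 6.68e-05) and Jup (0.29 ± 0.03, edgeR adjusted p = 1.93e-08) rose. Of 12 polarity genes 5 fell, among them Llgl2 (-0.33 ± 0.03) and Pard3 (-0.21 ± 0.04), and the other 7 did not pass. Of 12 epithelial transcription factors 5 fell, among them Klf4 (-0.24 ± 0.02), and 1 rose, Tfap2c (0.55 ± 0.03). On the mesenchymal side, 5 of 19 matrix and cytoskeleton genes rose and 6 fell (median -0.12), with Tgfbi (0.84 ± 0.04) and Ncam1 (0.72 ± 0.06) up and Thy1 (-0.34 ± 0.05) and Sparc (-0.30 ± 0.03) down. Other EMT transcription factors gave 1 rise and 3 falls among 7.

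In inputs labelled Upf1 knockout, 9 of the 27 junction genes were higher and 10 lower (median -0.01), with Jup at 0.82 ± 0.03 and Pkp2, another desmosome gene, at -0.91 ± 0.05. Polarity genes counted 7 higher and 3 lower of 12, Llgl2 at 0.51 ± 0.03 among them. Epithelial transcription factors counted 3 higher and 7 lower of 11 (median -0.37), and matrix and cytoskeleton genes 11 higher and 5 lower of 18 (median 0.22), with Pdgfrb at 1.03 ± 0.06. Other EMT transcription factors counted 0 higher and 2 lower of 7 (median -0.43), Tcf4 at -0.46 ± 0.05 among the lower. Of all 19444 genes, 29.5% were higher and 29.0% lower, with a median of -0.02. Untagged inputs had 5 of the 27 junction genes higher and 1 lower, where 7.67% of all genes were higher and 7.74% lower.

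The IPs show which of these mRNAs were recovered with Tnrc6a. Recovery is the log2 ratio of IP to input, and enrichment is the recovery in HA-Tnrc6a cells less that in untagged cells, the background of the beads. Of the 10 members, 3 were enriched and 4 depleted. These counts lie near the shares of all 19993 genes, of which 29.8% were higher and 32.2% lower. Enriched were the repressor Zeb1, the splicing factor Esrp1 and Vim, and depleted were the 4 structural epithelial genes Krt8, Epcam, Cdh1 and Krt18.

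Zeb1 was the most enriched member. Its HA-Tnrc6a IPs had 244, 212 and 192 and then 250, 204 and 203 CPM, against 13.7, 11.8 and 15.9 and then 20.1, 19.7 and 21.5 CPM in untagged IPs. The IP stood 18.8 and 9.69 times above its input in HA-Tnrc6a cells and 1.21 and 0.860 times in untagged cells. Enrichment was 13.4-fold, 3.75 ± 0.11 on the log2 scale (edgeR adjusted p = 2.25e-25), with 3.96 and 3.53 in the sets. Zeb2, its paralogue and also a miR-200 target, had 20 to 73 counts in HA-Tnrc6a IPs and a value of 0.43 (95% interval -0.22 to 1.07, edgeR adjusted p = 0.245).

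Esrp1 had 69.3, 65.3 and 70.5 and then 12.7, 12.1 and 12.3 CPM in HA-Tnrc6a IPs and 17.4, 22.5 and 24.8 and then 4.35, 4.02 and 5.65 CPM in untagged IPs, without overlap. Its enrichment was 1.51 ± 0.13 (edgeR adjusted p = 1.9e-12), with 1.52 and 1.49 in sets whose input levels lay 4.85 times apart. Esrp2 was at -0.03 (95% interval -0.32 to 0.26, edgeR adjusted p = 0.863). Vim was enriched by 0.33 ± 0.06 (edgeR adjusted p = 1.29e-05), with 199 to 237 CPM in HA-Tnrc6a IPs and 165 to 181 in untagged IPs.

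Krt8 was depleted by 1.14 on the log2 scale: its value was -1.14 ± 0.14 (edgeR adjusted p = 6.37e-09), from 4.90 to 8.20 CPM in HA-Tnrc6a IPs and 12.2 to 19.7 CPM in untagged IPs. Epcam followed at -0.91 ± 0.12 (edgeR adjusted p = 1.89e-07), with 50.4 to 68.7 CPM against 77.5 to 126 CPM. In untagged cells Epcam had a larger share of the IP libraries than of the inputs, with CPM ratios of 1.28 and 2.28 in the sets. The ratios were 0.874 and 0.935 in HA-Tnrc6a cells. Cdh1 was at -0.50 ± 0.17 (edgeR adjusted p = 0.0146) and Krt18 at -0.44 ± 0.15 (edgeR adjusted p = 0.0102). Fitted alone, libraries 4 to 6 gave Cdh1 -0.30 (edgeR adjusted p = 0.221) and libraries 1 to 3 gave Krt18 -0.26 (edgeR adjusted p = 0.352). Cdh1 varied within groups: untagged IPs 1 to 3 had 194, 121 and 133 CPM, and HA-Tnrc6a IP 4, which stood apart, had 138 CPM where IPs 5 and 6 had 209 and 174. Leaving out any 1 library kept all 7 calls, with Cdh1 between -0.57 and -0.39. Cdh2 was at 0.16 (95% interval -0.33 to 0.65, edgeR adjusted p = 0.576).

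The wider lists hold genes of both kinds. Of 27 junction and surface genes 15 were depleted, F11r (-0.92 ± 0.12) and Ctnna1 (-0.80 ± 0.08) among them, and 4 enriched, with Jup highest of those named (1.37 ± 0.08). Of 12 epithelial transcription factors 7 were enriched, including Grhl2 (1.89 ± 0.15) and Klf4 (1.29 ± 0.07), and 1 depleted, Grhl3 (-0.30 ± 0.11). Their median was 0.53, that of the junction genes -0.36 and that of all genes -0.10. Of all genes, 29.8% were enriched and 32.2% depleted. Of 12 polarity genes 4 were enriched, Pard6b by 2.55 ± 0.12, and 2 depleted. On the mesenchymal side, 4 of 19 matrix and cytoskeleton genes were enriched and 10 depleted. Their median of -0.34 was near that of the junction genes. Other EMT transcription factors counted 2 enriched and 0 depleted of 7.

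**Figure D3:**
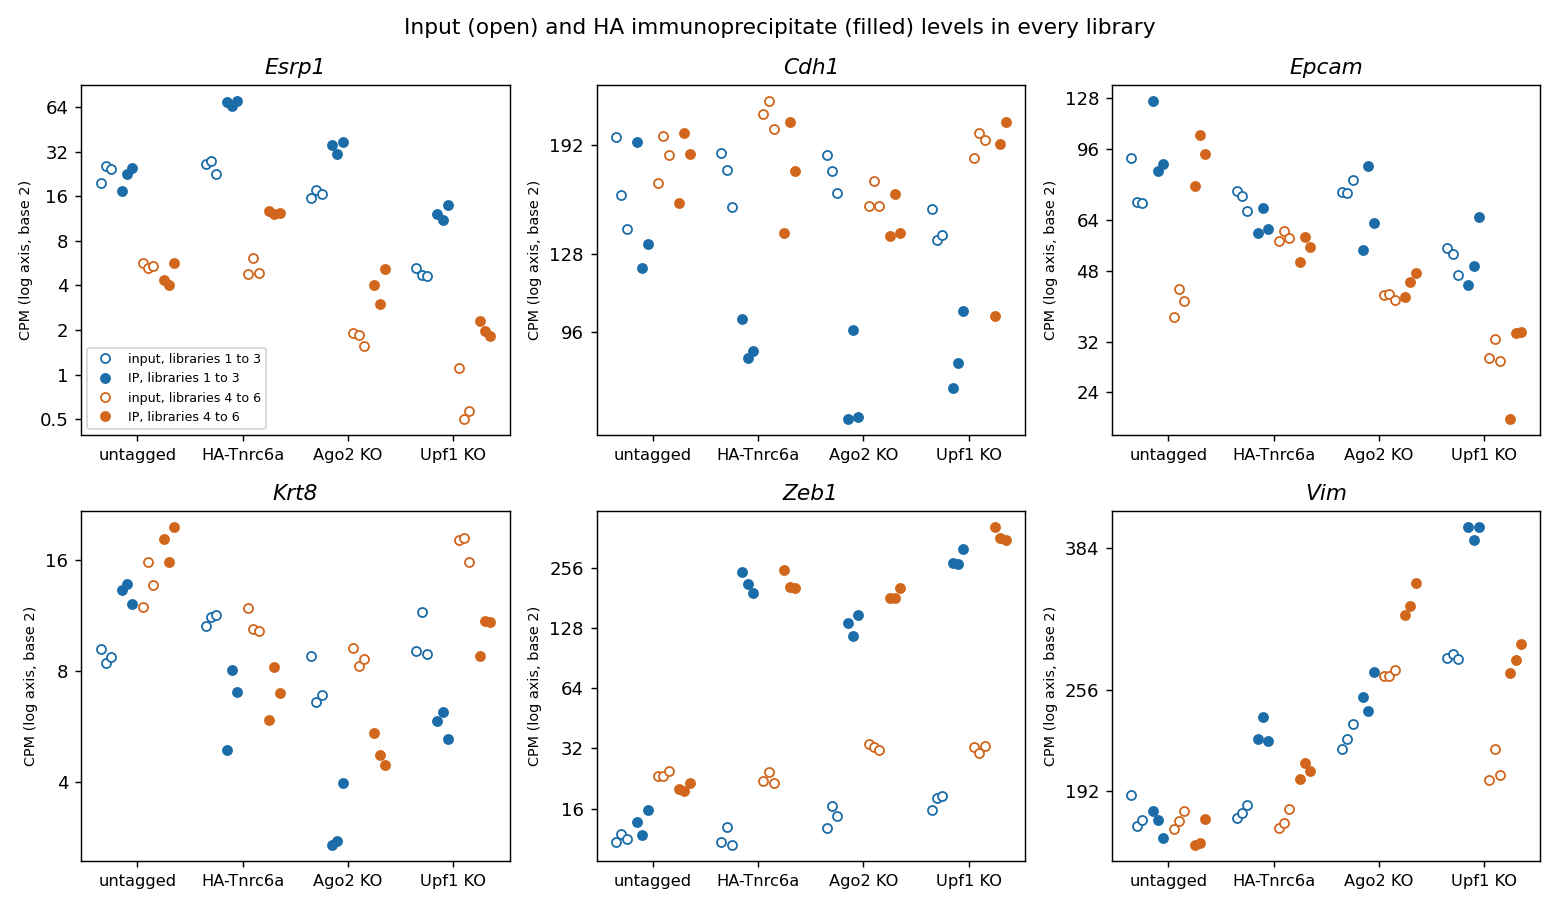
CPM of 6 genes in every library on a log axis, inputs open and IPs filled, libraries 1 to 3 in blue and 4 to 6 in orange, by genotype (KO, knockout). Zeb1 IPs lie at 192 to 250 CPM in HA-Tnrc6a cells and at 11.8 to 21.5 CPM in untagged cells, and the Ago2 knockout IPs of libraries 1 to 3 at 117 to 148 CPM.

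In Ago2 knockout cells the recovery of Zeb1 fell, the 1 member of 10 that passed this test. Ago2 knockout IPs had 135, 117 and 148 and then 180, 180 and 203 CPM of Zeb1, although their inputs held more of it than HA-Tnrc6a inputs. The IP-to-input ratio went from 18.8 to 9.06 in libraries 1 to 3 and from 9.69 to 5.76 in libraries 4 to 6. The difference in recovery was -0.90 ± 0.10 (edgeR adjusted p = 4.07e-08), with -1.05 and -0.76 in the sets. Of all 19995 genes, 9.09% were higher and 12.3% lower. Zeb1 thus kept 53.5% of its recovery and remained far above the ratio of untagged cells, 1.21 and 0.860.

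Esrp1 did not pass this test. Its ratio of IP to input was 2.08 and 2.30 in Ago2 knockout cells and 2.67 and 2.35 in HA-Tnrc6a cells, a log2 difference of -0.17 (95% interval -0.43 to 0.09, edgeR adjusted p = 0.383). Krt8 was at -0.36 (-0.68 to -0.05, edgeR adjusted p = 0.0946) and passed when HA-Tnrc6a IP 1, HA-Tnrc6a IP 4 or Ago2 knockout IP 3 was left out (-0.45, -0.42 and -0.47). The other 7 lay between -0.08 and 0.18. Among wider lists, 3 of 12 polarity genes lost recovery, Pard6b (-0.66 ± 0.10, edgeR adjusted p = 4.9e-06) among them, and 1 gained it. Of 27 junction and surface genes 2 lost it, Jup (-0.50 ± 0.07, edgeR adjusted p = 9.53e-07) among them, and 4 gained it, including Cldn4 (0.49 ± 0.10). Of 13 epithelial transcription factors 4 gained it, Grhl3 by 0.37 ± 0.10 and Klf5 by 0.36 ± 0.07, and 0 lost it. Of all genes, 9.09% were higher and 12.3% lower.

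In cells labelled Upf1 knockout, the recovery of 1 of the 9 members tested differed from HA-Tnrc6a cells. It was that of Vim, at 0.27 ± 0.06 (edgeR adjusted p = 0.00615), where 2.92% of 19966 genes were higher and 1.57% lower. Its IPs had 407, 393 and 408 and then 268, 279 and 292 CPM, above all HA-Tnrc6a IPs, and the ratio to input was 1.43 and 1.36 against 1.26 and 1.15. The call was lost without HA-Tnrc6a input 3 (0.21, edgeR adjusted p = 0.0651) and without HA-Tnrc6a input 6 (0.21, edgeR adjusted p = 0.0698). It was also lost in libraries 1 to 3 alone (0.18, edgeR adjusted p = 0.482), in libraries 4 to 6 alone (0.30, edgeR adjusted p = 0.0811) and with library totals (0.18, edgeR adjusted p = 0.089). Zeb1 IPs had 269, 266 and 317 and then 410, 358 and 352 CPM, while recovery differed by 0.08 (95% interval -0.11 to 0.28, edgeR adjusted p = 0.733), the input being higher too. Esrp1, given without a test because these inputs chose it, had 12.2, 11.1 and 13.9 and then 2.31, 1.97 and 1.81 CPM in the IPs. Its ratio to input was 2.55 and 2.79, beside 2.67 and 2.35 in HA-Tnrc6a cells. Cdh1 had 102 CPM in Upf1 knockout IP 4, which stood apart, and 193 and 209 CPM in IPs 5 and 6, with a recovery difference of 0.22 (-0.22 to 0.66, edgeR adjusted p = 0.672).

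The genes whose input pattern was most like that of Esrp1 were found by the root mean square difference of log2 CPM over 8 group means, each centred on the HA-Tnrc6a mean of its set. The closest of 10759 genes were Crabp1 (0.734), Hdgfl3 (0.791), Egr1 (0.819), Bcl6b (0.820) and Hmgn3 (0.824), where the median gene was at 1.44. The choice itself favours genes that are low in Upf1 knockout inputs, where the values of Esrp1 lie farthest from 0, and there Crabp1 stood at -1.71 and -1.54 and Hdgfl3 at -1.93 and -1.19 in the sets. In Ago2 knockout inputs the 5 genes lay nearer to HA-Tnrc6a than Esrp1 in libraries 4 to 6, with Crabp1 and Hdgfl3 both at -0.14 where Esrp1 was at -1.53. That did not hold for all 5 in libraries 1 to 3, where Esrp1 was at -0.61. Hmgn3 stood there at -0.68 and Egr1 at 0.66, and Crabp1, Hdgfl3 and Bcl6b at -0.16, -0.15 and 0.19.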

How the data were processed

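The authors deposited 1 table that holds raw counts per gene and library, not normalized, beside scaled values, per the file headers. Alignment used STAR 2.7.3a after bcl2fastq 2.20, on GRCm38 (mm10), per the submitters' processing notes; the counter, annotation and strand setting are not given in the sources used here, and a stranded total RNA kit was used, per the labels' protocols. The 48 scaled columns were not used. The table itself named 16427 genes, a reference table named another 3725, and 19 had no symbol.

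Counts were tested with edgeR 4.0.16 (limma 3.58.1, R 4.3.3), checked on simulated data. Each model held only the groups of its comparison, with 1 coefficient per genotype, fraction and set of libraries (1 to 3 or 4 to 6), TMM scaling, filterByExpr with a minimum count of 10, and a robust quasi-likelihood F-test (two-sided) of the contrast averaged over the sets. P-values were adjusted by Benjamini-Hochberg over all genes tested, and genes under 0.05 were called. Standard errors were derived from the log2 difference and its F statistic, and intervals are at 95%. Counting error falls with depth (11471544 to 73845953 counts per library), and without molecular identifiers PCR copies cannot be removed from it. Column names give the genotype, fraction and number but not the experiment.

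The members and gene lists were chosen with earlier results of these data known. Named from each list were up to 2 called genes per direction with the largest change, the same sign in both sets and a mean log2 CPM no lower than 3, and, as most like Esrp1, the 5 with the smallest root mean square difference. Alternatives were RLE factors or library totals, no count filter, DESeq2 1.42.0, each set alone, a replicate block, IPs without inputs, a fold change of at least 2 and leaving out each library. One gene that this rule names is not reported here.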

Additional observations from a re-analysis of the deposited data

Results flagged for a closer look

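For 6 results the change differed between libraries 1 to 3 and libraries 4 to 6 by the interaction term of the edgeR quasi-likelihood fit. In Ago2 knockout inputs the difference (libraries 4 to 6 less libraries 1 to 3, log2) was -0.96 ± 0.18 (SE) for Esrp1, which was lower in both sets, -0.58 ± 0.07 for Epcam and -0.46 ± 0.11 for Cdh1, both of which were lower in libraries 4 to 6 alone, and 0.29 ± 0.05 for Vim, which was higher in both. The edgeR adjusted p-values were 0.000235, 3.25e-08, 0.0301 and 0.000112. In untagged inputs it was -0.64 ± 0.11 for Epcam (edgeR adjusted p = 0.00286) and 0.69 ± 0.15 for Krt8 (edgeR adjusted p = 0.0112), each with opposite signs in the sets. Day, depth and culture cannot be told apart from the set. The same HA-Tnrc6a inputs enter both comparisons in which Epcam appears. These differences were not refitted with a library left out.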

How the results depend on the processing

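Of 1307 tests of members under alternatives, 1277 kept their side of the threshold, 8 lost the threshold, 15 gained it and 7 turned. A result turned where its sign changed and either fit passed. Changes of sign where neither fit passed are among the 1277. Libraries 1 to 3 alone turned Cdh1 (0.018) and Epcam (0.091) in Ago2 knockout inputs, Epcam in untagged inputs (0.10) and, untested, Krt8 in Upf1 knockout inputs (-0.18). IPs compared without inputs carry the input change, and turned Vim in Ago2 knockout (0.46) and Esrp2 (-0.33), Epcam (-0.55) and Cdh2 (-0.94) in Upf1 knockout cells. Vim recovery in Upf1 knockout cells lost the threshold with library totals (0.18, edgeR adjusted p = 0.089), and the difference of Cdh1 between the sets in Ago2 knockout inputs did so too (edgeR adjusted p = 0.103). Library totals moved the median enrichment of all genes from -0.0967 to -0.254. The number of genes called was 6065 for Ago2 knockout inputs, 2990 for untagged inputs, 12395 for enrichment, 4267 and 896 for recovery in Ago2 and Upf1 knockout cells and 11388 for Upf1 knockout inputs. With a fold change of at least 2, in that order, 355, 200, 4283, 224, 34 and 1026 were called. Libraries 1 to 3 alone called 3382 and 652 for the Ago2 knockout and untagged inputs and 1623 and 162 for recovery in Ago2 and Upf1 knockout cells, and libraries 4 to 6 alone 384 for the last. IPs without inputs called 7482 and 8805 for these recoveries, and library totals 482 rather than 73 for the difference in enrichment between the sets; the cause was not tested. Leaving out each library gave 591 to 957 calls for recovery in Upf1 knockout cells, the lowest 4 being without HA-Tnrc6a inputs 2, 3, 5 and 6. Of its calls, 65.1% were higher, against 52.8% with RLE factors, 47.5% with no filter and 22.4% with library totals. With a replicate block, 6494, 3350, 12435, 4471, 1067 and 11541 genes were called, and Cdh1 passed in untagged inputs (-0.14, edgeR adjusted p = 0.00354); no other member's call changed. Same-numbered libraries had a mean correlation of 0.068 over 168 pairs, and input and IP of the same number and genotype 0.104 over 24 pairs (-0.0609 to 0.509, 10 over 0.1), so the numbers were not taken as pairs. The levels of Zeb2 and Cdh2 rest on few counts, 9 to 61 and 19 to 169 per input, which limits what their tests could detect.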
